A study of Mus with 5 samples.

Results

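Calcium cycling genes of cardiomyocytes were examined in the ventricles and valves of E14.5 mouse hearts. The set comprised 6 genes taken by identifier: *Ryr2*, *Atp2a2*, *Pln*, *Sln*, *Slc8a1* and *Casq2*. All 6 were present among the 12857 genes with values. RNA-seq values covered 3 pools of Nkx2.5Cre/+;Bmp2tg/+ hearts, called transgenic here, and 2 pools of wild type (WT) hearts, with 4 embryos behind each pool. In transgenic embryos, Cre from the *Nkx2.5* line removes a β-Geo stop cassette, after which a CAG promoter at *Rosa26* drives *Bmp2* and eGFP. That line came from a single targeted stem cell clone. The labels do not say whether the WT embryos carried the Cre allele. A cross described in the study, of Bmp2tg/+ males with Nkx2.5Cre/Cre females, gives Cre to all offspring, but whether the sequenced WT hearts came from it is not stated. If the WT pools lacked Cre, the effects of the Cre allele and of the transgene cannot be told apart. Of the WT pools, 1 stood apart in the authors' clustering and was left out by them, so it was not analysed here. The WT pools were thus kept for their likeness, and the spread between them may be too small.

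In a beating cardiomyocyte, calcium entering through the L-type channel opens the ryanodine receptor of the sarcoplasmic reticulum, and the calcium released from this store drives contraction. The muscle relaxes when the SERCA pump returns calcium to the store and the sodium/calcium exchanger moves the rest out of the cell. *Ryr2* encodes the cardiac release channel and *Casq2* encodes calsequestrin, the calcium buffer inside the store. *Atp2a2* encodes the SERCA2 pump, which is inhibited by the small membrane proteins phospholamban (*Pln*) and sarcolipin (*Sln*). *Slc8a1* encodes the exchanger NCX1. The genes of this cycle are known to be expressed in the embryonic heart, and *Sln* is known in the mouse heart as an atrial gene.

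The exchanger *Slc8a1* and the release channel *Ryr2* were lower in transgenic hearts, with changes of -23.8% and -17.7%. The level of the pump gene *Atp2a2* differed by less than the spread between pools. *Casq2* and *Pln* had lower values in all transgenic pools (-10.6% and -8.58%) but did not pass the test, and the scarce *Sln* transcript had overlapping groups and a wide interval. Values were in CPM, read counts per 1000000 reads of the library, and were compared as log2(CPM + 0.5) with limma. A gene was called at a Benjamini-Hochberg adjusted p of at most 0.05 over all 12857 genes. By this rule 2 of the 6 genes were called, both lower in transgenic hearts. Both, and no other member, are on the study's own list of altered genes. That list was made from these same libraries, so the calls are not independent evidence. Of all genes, 2.82% were called in either direction and 1.59% as lower. The tissue was bulk, so that fewer cardiomyocytes and less RNA per cardiomyocyte cannot be told apart in any of these values.

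**Figure D1:**
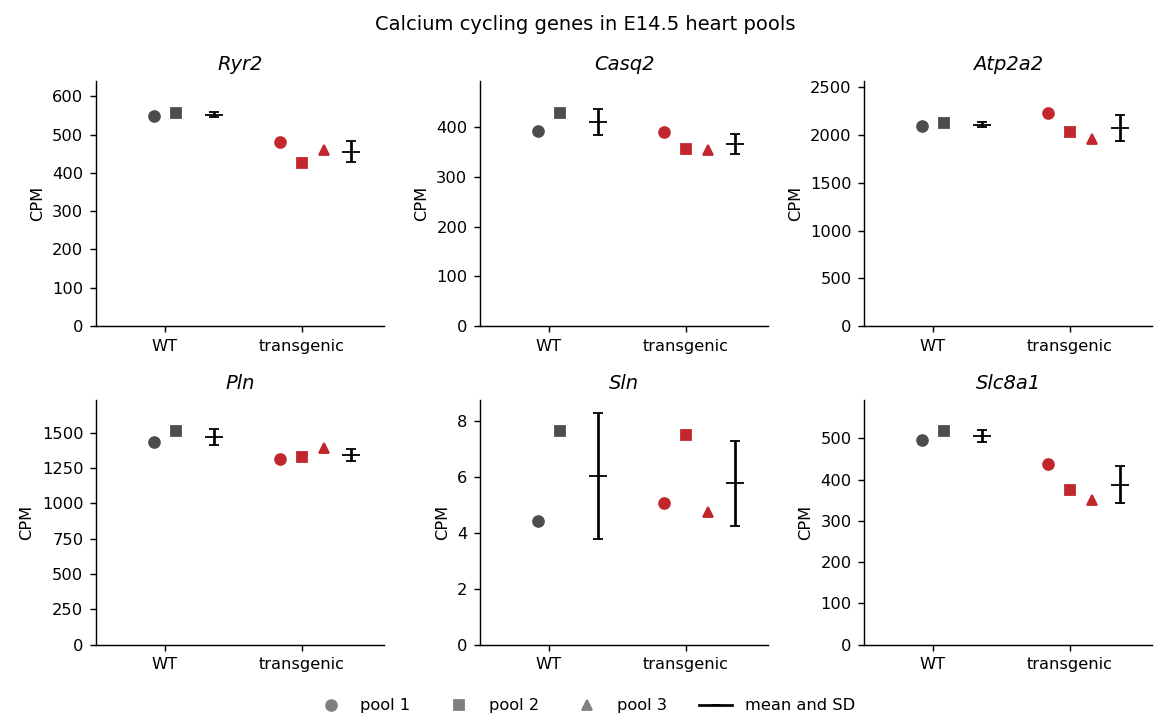
CPM of the 6 calcium cycling genes (vertical axes, each starting at 0) in WT and transgenic pools, with 1 symbol per pool and the mean and SD at the right of each group. The transgenic pools lie below both WT pools for *Ryr2*, *Casq2*, *Pln* and *Slc8a1*, and the groups overlap for *Atp2a2* and *Sln*.

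Between 7427905 and 10564780 reads were recovered per library, with 7931484 or more for transgenic hearts. For the 5 well-measured genes each value rested on 2800 to 23326 reads, and counting error alone was at most 1.89%. The labelled tissue could be checked against few defining markers, because identifiers were paired with names only for the study's list of altered genes. Of that list, the ventricular genes *Irx4* and *Hey2* were at 91.5 ± 5.05 and 198.4 ± 3.90 CPM (SD, n = 3) in transgenic pools and at 72.7 ± 2.49 and 168.3 ± 0.555 CPM (SD, n = 2) in WT pools. Positions below are the gene spans of the RefSeq table of GRCm38.p6. The smallest p that an exact permutation test of 3 pools against 2 allows is 0.1, so the calls rest on models fitted across all genes and not on that test. Nothing says whether pools came from different litters, and the p-values measure the spread between these pools only.

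*Ryr2* (ENSMUSG00000021313, chromosome 13, 11553099 to 12106945 in GRCm38.p6) was at 480.3, 425.0 and 459.3 CPM in transgenic pools 1, 2 and 3 and at 547.6 and 556.3 CPM in WT pools 1 and 2. Each transgenic pool was below both WT pools, and the WT pools were close to each other. The log2 difference of *Ryr2*, transgenic minus WT, was -0.28 (standard error 0.06, limma adjusted p = 0.0175). This corresponds to a change of -17.7%, with a 95% interval of -24.6% to -10.1%. Of all genes, 7.29% had a lower log2 difference. The call held with each transgenic pool left out in turn and was lost with either WT pool left out (limma adjusted p-values of 0.222 and 0.245 without WT pools 1 and 2), while the difference stayed at -0.29 and -0.27 in the same order. With a single WT pool, 45 genes (0.35%) without WT pool 1 and 43 genes (0.334%) without WT pool 2 were called in the whole table, and the lone pool is assumed to vary like the transgenic ones.

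*Casq2* (ENSMUSG00000027861, chromosome 3, 102086415 to 102146514), whose product binds calcium beside the release channel, was at 390.3, 357.2 and 354.0 CPM in transgenic pools 1, 2 and 3 and at 392.8 and 428.8 CPM in WT pools 1 and 2. Its groups nearly touched, since transgenic pool 1 was just under WT pool 1. The log2 difference was -0.16 (standard error 0.06, 95% interval -0.29 to -0.03), with a limma p of 0.0177 before adjustment and 0.175 after it. *Casq2* was not called under any of the 17 other settings, where its adjusted p in limma, edgeR or DESeq2 ranged from 0.0917 to 0.665. Its log2 difference was below 0 in all 17, at -0.22 without WT pool 1 and -0.10 without WT pool 2.

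*Atp2a2* (ENSMUSG00000029467, chromosome 5, 122453513 to 122502225) was at 2231, 2033 and 1959 CPM in transgenic pools 1, 2 and 3 and at 2092 and 2126 CPM in WT pools 1 and 2. The groups overlapped, with transgenic pool 1 above and transgenic pools 2 and 3 below both WT pools. The log2 difference was -0.03 (standard error 0.07, limma adjusted p = 0.89), and its 95% interval of -0.17 to 0.12 corresponds to -11.3% to 8.75%. A change of *Atp2a2* as large as that of *Slc8a1* lies outside this interval. The value sums all transcripts of the gene, so the SERCA2a and SERCA2b forms are not told apart. The sign of this difference also changed with the scaling, at 0.04 after quantile normalization.

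The pump inhibitors were very unequal in read support. *Pln* (ENSMUSG00000038583, chromosome 10, 53337686 to 53345999) was at 1312, 1328 and 1390 CPM in transgenic pools 1, 2 and 3 and at 1431 and 1508 CPM in WT pools 1 and 2. All transgenic pools were below both WT pools by a small margin. The log2 difference was -0.13 (standard error 0.06, 95% interval -0.26 to -0.001), with a limma p of 0.0481 before adjustment and 0.278 after it. *Pln* was called under 1 of 17 other settings, quantile normalization, where the difference was -0.19 and the limma adjusted p was 0.0323. The range over the 17 settings was 0.0323 to 0.716. In the RefSeq table *Pln* lies within the span of *Cep85l* (53273441 to 53379883), and a use of strand in counting is not stated in the sources used here, so reads of the 2 genes may not be told apart where they overlap. None of the other 5 genes overlaps another gene of that table.

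*Sln* (ENSMUSG00000042045, chromosome 9, 53850251 to 53853849) was at 5.07, 7.52 and 4.75 CPM in transgenic pools 1, 2 and 3 and at 4.44 and 7.64 CPM in WT pools 1 and 2. These values came from 53, 70, 38, 42 and 57 reads in the same order. WT pool 1 was the lowest and WT pool 2 the highest of all pools, so the groups overlapped fully. By exact Poisson intervals for counting error only, WT pool 1 lay between 3.2 and 6 CPM and WT pool 2 between 5.79 and 9.90 CPM. The log2 difference was -0.04 (standard error 0.24, limma adjusted p = 0.953), with a 95% interval of -0.54 to 0.46, which corresponds to -31.2% to 37.5%. Counting error was 12.0% to 16.2% of each value, and the SD of the log2 values was 0.33 among transgenic and 0.51 among WT pools. The atria had been removed before RNA was made. The only other atrial gene of the 9 listed that could be matched, the atrial myosin light chain gene *Myl7*, was at 653, 869 and 616.5 CPM in transgenic pools 1, 2 and 3 and at 384 and 373 CPM in WT pools 1 and 2, a log2 difference of 0.90 (limma adjusted p = 0.000166). Between the genotypes *Myl7* was called and *Sln* was not, and whether the 2 genes differ in this was not tested. *Myl7* could be matched only through the study's list of altered genes, so its call is not independent evidence.

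*Slc8a1* (ENSMUSG00000054640, chromosome 17, 81373105 to 81738387 in GRCm38.p6) had the largest difference of the 6. It was at 437.8, 373.9 and 350.2 CPM in transgenic pools 1, 2 and 3 and at 495.4 and 516.6 CPM in WT pools 1 and 2. Each transgenic pool was below both WT pools, but the transgenic pools were spread more widely than for *Ryr2*, with pool 1 nearest to WT. The exact permutation p of the log2 values was 0.2 for *Slc8a1* and 0.1 for *Ryr2*. The log2 difference was -0.39 (standard error 0.08, limma adjusted p = 0.0093), a change of -23.8% with a 95% interval of -31.8% to -14.8%. Of all genes, 3.70% had a lower log2 difference. *Slc8a1* was called with edgeR's quasi-likelihood test on the recovered reads (adjusted p = 0.0117) and with edgeR's exact test (adjusted p = 0.000628), and not with DESeq2 (adjusted p = 0.0816). As for *Ryr2*, the call held without any one transgenic pool and was lost without WT pool 1 or WT pool 2, where limma gave adjusted p-values of 0.171 and 0.216 in that order. The differences were then -0.42 and -0.36.

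**Figure D2:**
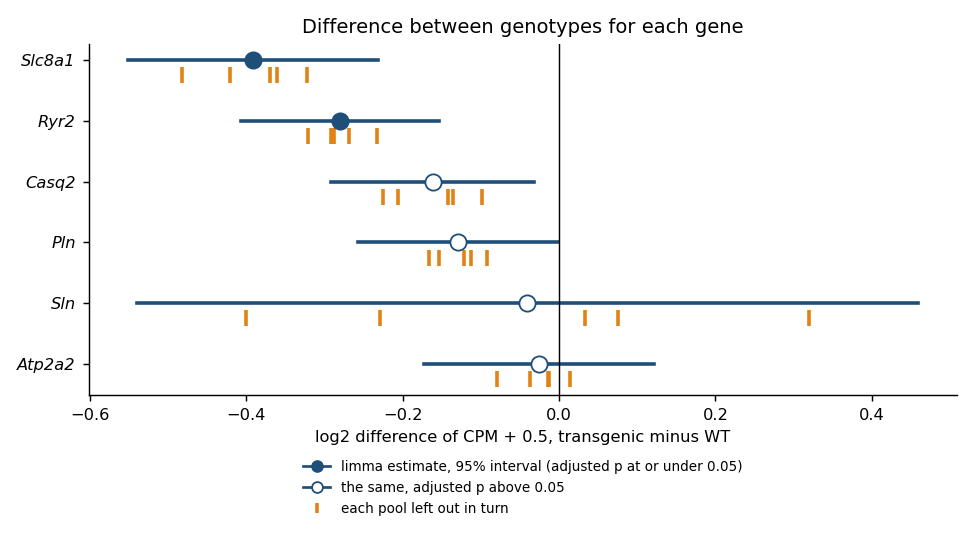
Log2 difference of CPM + 0.5 between transgenic and WT pools for each gene (horizontal axis), with the limma estimate as a circle, its 95% interval as a bar, and orange ticks for each pool left out in turn. Filled circles mark *Slc8a1* and *Ryr2*, with adjusted p-values of 0.0093 and 0.0175, and the interval of *Sln* is the widest, from -0.54 to 0.46.

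Read together, the log2 differences were below 0 for all 6 genes, as for 48.8% of all genes. For 4 of the 6, the transgenic pools were all below both WT pools, an arrangement found in 18.0% of all genes. An unadjusted limma p under 0.05 was found for 4 of the 6, against 17.7% of all genes. The median log2 difference of the 6 was -0.15, beside 0.005 for all genes. The median size of the decreases among all genes called lower was 0.41 on the log2 scale, so *Slc8a1* was near that median and *Ryr2* was smaller.

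The calls of *Ryr2* and *Slc8a1* held under most other settings. Of these settings, dropping the filter could change no call, because the filter removed no gene. TMM factors computed anew gave nearly the same adjusted p-values in edgeR's quasi-likelihood test as the deposited scaling. With edgeR on the recovered reads both were called by the quasi-likelihood test, which called 3.1% of all genes, and by the exact test, which called 3.75%. DESeq2 called *Ryr2* alone (adjusted p = 0.00162) among 1.78% of all genes. Quantile normalization added *Pln* among 2.24% of all genes, and a fit with the pool number as a block called *Ryr2* and *Slc8a1* among 5.09%. Without the trend of variance on level, limma called none of the 6 genes, of which 2 had an unadjusted p under 0.05, and 0.0778% of all genes. edgeR's quasi-likelihood test and DESeq2 called 2 and 1 of the 6.

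**Figure D3:**
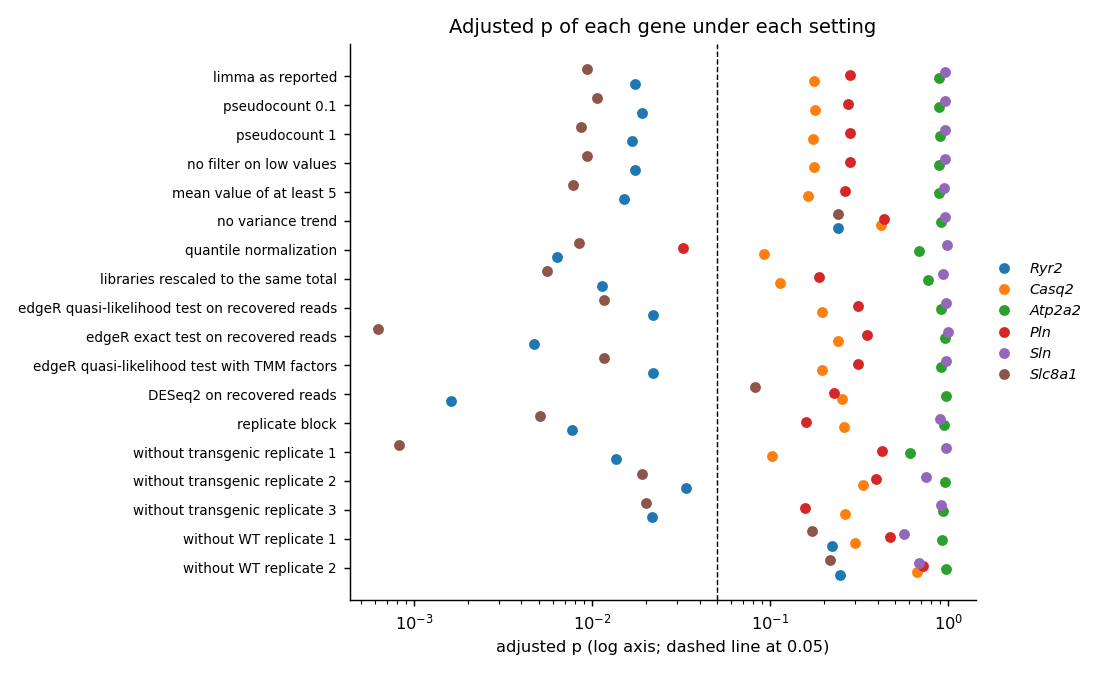
Adjusted p (horizontal log axis, dashed line at 0.05) of each of the 6 genes under limma as reported and 17 other settings (rows). *Ryr2* and *Slc8a1* lie left of the line in 14 and 13 of the 17, *Pln* in 1, and *Casq2*, *Atp2a2* and *Sln* in none, with no DESeq2 value for *Sln*.

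**Figure D4:**
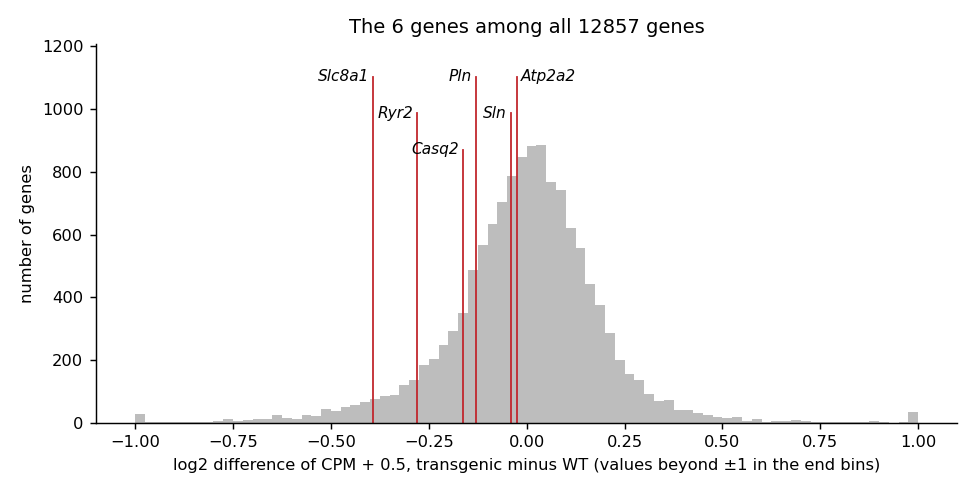
Number of genes (vertical axis) by log2 difference of CPM + 0.5, transgenic minus WT (horizontal axis), for all 12857 genes in grey, with the 6 calcium cycling genes as red lines. *Slc8a1* and *Ryr2* stand in the left flank, with 3.70% and 7.29% of genes below them, while *Atp2a2* and *Sln* stand near the centre.

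Ratios between genes within a pool do not change when a library is multiplied by a constant, though they do under quantile normalization, and they show whether release, uptake and extrusion genes moved in step. The ratio of *Slc8a1* to *Atp2a2* CPM was 0.196, 0.184 and 0.179 in transgenic pools 1, 2 and 3 and 0.237 and 0.243 in WT pools 1 and 2. All transgenic pools were below both WT pools, and the difference of the log2 ratios was -0.37, against an SD of 0.07 among transgenic and 0.03 among WT pools. The exact permutation p was 0.1, the smallest that 3 pools against 2 can give, and 0.4 when adjusted over 4 ratios. Leaving out single pools moved the difference to values between -0.40 and -0.34.

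The ratio of *Ryr2* to *Atp2a2* was chosen after the values were seen, so a separation of its groups restates them and is no further evidence. It was 0.215, 0.209 and 0.234 in transgenic pools 1, 2 and 3, while both WT pools were at 0.262. The groups were again separate, with a log2 difference of -0.25 and an SD of 0.09 among transgenic pools (exact permutation p = 0.1). In these values the release channel and the exchanger were both lower relative to the pump gene in every transgenic pool.

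The other ratios overlapped between the genotypes. The ratio of *Pln* to *Atp2a2*, inhibitor to pump, was 0.588, 0.653 and 0.709 in transgenic pools 1, 2 and 3 and 0.684 and 0.709 in WT pools 1 and 2, a log2 difference of -0.10 with an exact permutation p of 0.5. It was -0.03 without transgenic pool 1 and -0.17 without transgenic pool 3. Transgenic pool 1, which had the highest *Atp2a2* and the lowest *Pln*, gave the lowest ratio. The ratio of *Sln* to *Atp2a2* was near 0.003 in both genotypes, at 0.00280 ± 0.000781 (SD, n = 3) and 0.00286 ± 0.00104 (SD, n = 2), with an exact permutation p of 1. Its log2 difference took both signs when single pools were left out, from -0.36 without WT pool 1 to 0.33 without WT pool 2. The ratio of *Casq2* to *Ryr2*, store buffer to release channel, was 0.813, 0.840 and 0.771 in transgenic pools and 0.717 and 0.771 in WT pools, a log2 difference of 0.12 with an exact permutation p of 0.3, and of 0.07 without WT pool 1. CPM does not correct for transcript length, so these ratios compare pools and not the abundance of a gene with that of another.

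**Figure D5:**
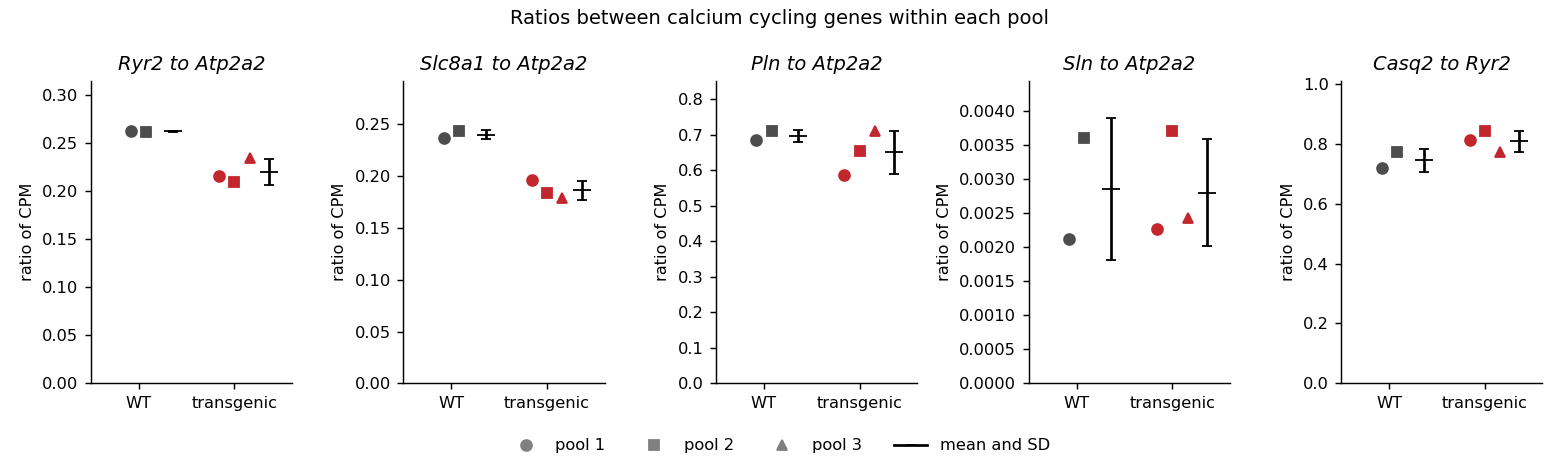
Ratio of the CPM of pairs of calcium cycling genes within each pool (vertical axes start at 0), with 1 symbol per pool and the mean and SD at the right of each group. *Slc8a1* and *Ryr2* relative to *Atp2a2* separate the genotypes, at 0.179 to 0.196 against 0.237 and 0.243 for *Slc8a1*, whereas the other ratios overlap.

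Across the 5 pools, the profiles of the members were compared as the Euclidean distance between their log2 values after subtraction of each gene's mean. The closest pair was *Pln* and *Casq2*, at 0.168, followed by *Atp2a2* and *Casq2* at 0.170 and *Ryr2* and *Casq2* at 0.174. *Slc8a1* was closest to *Ryr2*, at 0.229. *Sln* was the farthest from every other member, at 0.675 or more. The distance is not scaled by the spread of a gene, and *Sln* rested on 38 to 70 reads per pool. What part counting error has in its distances was not tested. Among the 399 other genes whose identifier carries a symbol of its own (symbols shared by a pair of identifiers were left out), the profile of *Ryr2* was nearest to those of *Ube3a* (0.032), *Itpr1* (0.036) and *Sema5a* (0.042). The profile of *Slc8a1* was nearest to those of *Lrba* (0.110), *Myocd* (0.120) and *Lama2* (0.126). *Itpr1*, the inositol trisphosphate receptor of type 1, is itself a calcium release channel. The 399 genes all come from the study's list of altered genes of these libraries, so likeness in direction was built into the choice.

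Other calcium handling genes were sought from a list of 67 names. Identifiers could be paired with names for 5 of them, all from the study's list of altered genes, so their calls are not independent evidence of a direction. In limma 4 were called lower and 1 higher. Of all genes, 1.59% were called lower and 2.82% in either direction. The median log2 difference of the 5 was -0.26. The other 62 were not analysed here.

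Among the genes of calcium entry, *Cacna1c*, the pore subunit of the L-type channel, was at 185.7, 183.5 and 181.5 CPM in transgenic pools and at 213.2 and 215.7 CPM in WT pools, with a log2 difference of -0.22 and a limma adjusted p of 0.0325. *Cacna1g*, the pore subunit of a T-type channel, went the other way, at 94.0, 101.7 and 90.0 CPM against 57.5 and 53.9 CPM, with a log2 difference of 0.77. The groups of both channels were separate. *Jph1*, a junctophilin that ties the store to the surface membrane, was at 9.47, 10.5 and 10.5 CPM against 16.7 and 13.7 CPM, a log2 difference of -0.55 with a limma adjusted p of 0.0401.

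Among the genes of the store, *Casq1*, the calsequestrin best known from skeletal muscle, was at 102.5, 91.6 and 100.4 CPM in transgenic pools 1, 2 and 3 and at 112.5 and 128.5 CPM in WT pools 1 and 2. Its log2 difference was -0.29 (limma adjusted p = 0.037), larger in size than that of its cardiac relative *Casq2*, though the difference between the 2 was not tested. *Itpr1* was at 111.0, 98.6 and 108.7 CPM in transgenic pools and at 125.3 and 128.8 CPM in WT pools, with a log2 difference of -0.26 and a limma adjusted p of 0.0409. *Itpr1* and *Ryr2* shared the same order of the transgenic pools, with pool 1 highest and pool 2 lowest. *Casq1*, *Ube3a* and *Sema5a* had this order too, as did the endothelial marker *Kdr*. *Itpr1*, *Ube3a* and *Sema5a* were picked for likeness to *Ryr2*, and the share of all genes with this order was not counted. Of the 5 genes, *Cacna1g* alone was called whichever single pool was left out, and *Cacna1c* was not called without any one of the 5 pools. The number called was 1 without transgenic pool 2, WT pool 1 or WT pool 2, where 1.76%, 0.35% and 0.334% of all genes were called. It was 3 without transgenic pool 1 and 4 without transgenic pool 3, where the shares of all genes were 2.43% and 3.61%.

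Markers of cell types were matched for 14 genes, all of them from the study's list of altered genes. Of 12 cardiomyocyte markers only *Ckm*, muscle creatine kinase, was matched. It was at 418.0, 410.8 and 370.5 CPM in transgenic pools and at 482.8 and 480.4 CPM in WT pools (log2 difference -0.27, limma adjusted p = 0.0232), close to the difference of *Ryr2*. The ventricular genes *Irx4* and *Hey2* were higher in transgenic pools, with log2 differences of 0.33 (limma adjusted p = 0.0134) and 0.24 (limma adjusted p = 0.0267). The epicardial gene *Tbx18* was also higher, at 86.2 to 88.1 CPM against 65.3 and 69.7 CPM, and was the only one of 5 epicardial markers matched.

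The sum of the 4 matched endothelial and endocardial markers of 10, *Cdh5*, *Kdr*, *Tie1* and *Plvap*, ranged from 462.1 to 547.7 CPM in transgenic pools and from 659.3 to 668.5 CPM in WT pools, with 3 called lower and *Cdh5* not called. The sum of *Dcn* and *Pdgfra*, 2 of 9 fibroblast and valve mesenchyme markers, was 256.2 to 282.5 CPM against 311.4 and 332.3 CPM, with *Pdgfra* called lower. The sum of 3 of 7 smooth muscle and pericyte markers was 137.7 to 157.1 CPM against 184.8 and 188.4 CPM, with *Myh11* and *Rgs5* called lower. None of these markers was at 0 in any pool. No red cell or skeletal muscle marker was matched. Among the called markers, *Myl7* alone was called whichever single pool was left out. Since the matched markers all come from the list of genes altered in these libraries, that they differ is not independent evidence. Their part in the results of the calcium cycling genes was not tested.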

How the data were processed

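RNA of E14.5 hearts without atria was pooled by the authors (4 hearts per pool, 12 per genotype), made into single-end Illumina libraries, trimmed with cutadapt, quantified with RSEM over GRCm38 and Ensembl genebuild 70, and analysed with edgeR. The authors deposited values of 12857 genes in 5 pools as CPM (counts per 1000000 reads, with library sizes scaled by the authors), and 0 columns were left unused. In every library 100% of values were whole multiples (within 0.01 read) of the worth of 1 read. That worth was started from the smallest gap between low values and refined by least squares. The multiples are called reads here. RSEM estimates counts, so they may be rounded estimates, and counting error treats them as observed reads. The chi-square of reads averaged 2.24 per gene for the WT pair and 3.40 to 3.96 for transgenic pairs. Across genotypes it ran from 3.935 (transgenic pool 3 with WT pool 2) to 8.068 (transgenic pool 2 with WT pool 1). All were above the 1 of counting error alone, so no library was taken for a repeat of another.

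The comparison used limma 3.58.1 in R 4.3.3 on log2(CPM + 0.5), transgenic against WT, with a variance trend and no covariates, fitted on the whole table. The study used edgeR, with the test not given in the sources used here. As alternatives, edgeR 4.0.16 (quasi-likelihood and exact tests) and DESeq2 1.42.0 were run on the recovered reads. A filter of at least 1 CPM in at least 2 libraries removed 0 genes. Python 3.11.15 (scipy 1.17.1, pandas 2.3.3, numpy 2.4.6, matplotlib 3.10.9) served for tables, exact tests and figures. The fits were tested on simulated data. The members, gene lists and tests were chosen with earlier results of these data known. Named genes were the 6 members, those genes of the lists past the threshold (up to 10 a list by adjusted p), any gene a member is set beside (*Cdh5* and *Dcn*, not called, are named only as parts of a summed marker level), and, for each called member, the 3 genes with a symbol nearest in profile. Besides those of the members, symbols came from the study's list of altered genes (406 identifiers, 405 with a symbol), whose fold changes and p-values were not used. Positions came from the RefSeq table of GRCm38.p6 by symbol. For *Atp2a2*, *Pln*, *Sln* and *Casq2* the symbol came from the definition of the gene set alone. No other source used here checked that these symbols, and so these positions, belong to the identifiers. No sequences were used here.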

Additional observations from a re-analysis of the deposited data

How the results depend on the processing

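For *Ryr2* and *Slc8a1* the log2 difference was below 0 in all 17 other settings, and they were called in 14 and 13 of them. Without the variance trend, neither was called (differences of -0.28 and -0.39, limma adjusted p-values of 0.239 and 0.238): limma then called 0 of the 6 members and 0 of the 5 other calcium handling genes, although 2 and 5 had an unadjusted p under 0.05, and 10 genes of the whole table. edgeR's quasi-likelihood and exact tests called 2 members and all 5 others, among 3.1% and 3.75% of all genes. DESeq2 called 1 member and 2 others among 1.78% of all genes, and not *Slc8a1* (-0.39, adjusted p = 0.0816). The cause was not tested. Quantile normalization called *Pln* (-0.19) and 2 of the 5 others, among 2.24% of all genes, and reversed *Atp2a2* (0.039, limma adjusted p = 0.687).

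Over the fits that left out 1 pool, differences ranged from -0.32 to -0.23 for *Ryr2*, -0.48 to -0.32 for *Slc8a1*, -0.17 to -0.09 for *Pln*, -0.22 to -0.10 for *Casq2*, -0.079 to 0.014 for *Atp2a2* and -0.40 to 0.32 for *Sln*. Members called ranged from 0 (without WT pool 1 or WT pool 2, where 3 and 2 had an unadjusted limma p under 0.05) to 2, and other calcium handling genes from 1 to 4. Of all genes, 0.35% and 0.334% were called without WT pools 1 and 2, and 2.43%, 1.76% and 3.61% without transgenic pools 1, 2 and 3.

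The pool number as a replicate block leaves transgenic pool 3 without a WT partner. It gave *Atp2a2* 0.014 and *Sln* 0.075, neither called, and changed no call of a member. Among the other calcium handling genes, *Cacna1c* was no longer called with the block (-0.22, limma adjusted p = 0.0502). The differences with the block equal those without transgenic pool 3, where 464 genes were called. With the block 655 genes were called, and 362 with all pools and no block. Deviations of pools with equal numbers had correlations of -0.026 and -0.050 across genes. The deviations of WT pool 1 and WT pool 2 from their mean are mirror images of each other. These correlations therefore cannot show whether pools with equal numbers share a litter or batch. TMM factors computed anew gave edgeR calls equal in number to those with the deposited scaling (398 genes). The removal of a length trend was not run, because fewer than 80% of genes had a length. *Sln* had the fewest reads of the members, at 38 to 70, and what part depth has in its wide interval was not tested.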
